A study of Mus musculus with 3530 samples.

Results

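Sfxn1, Zfp688, Gpatch11, Pcbd1, Cfap97 and Timm22 are 6 of the 23354 genes in a count table of single neurons from the mouse medial prefrontal cortex. They were chosen by their measured values in these same samples, as genes with lower levels after fear recall. Their differences between conditions are therefore a description, without p-values, and calls of members between conditions carry no support. The members do not form a known pathway.

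All 4 conditions used TRAP2;Ai14 mice. TRAP2 is a tamoxifen-dependent Cre recombinase placed under the activity-regulated Fos gene, and Ai14 is a tdTomato reporter that Cre switches on, so cells active while the drug is present stay labelled. The conditions are named Fear-Recall (1342 cells), Fear-Only (841 cells), Context-Only (912 cells) and Homecage (435 cells), with 5 animals each, and the labels give no schedule, age or sex. Papain was used to free the cells, and Smart-seq2 reads full-length transcripts of single cells without molecular identifiers, so counts are reads and not molecules. Titles in sets 2 to 4 name a pos and a neg sorting gate, and sets 1 and 5 name none. A set is the number that the labels give to a mouse in each condition. The titles of Homecage animal 3 name both gates at once, so its 96 cells entered neither the pos nor the neg sums.

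Sfxn1 and Timm22 belong to the mitochondrial inner membrane. Sfxn1 carries serine into the mitochondrion, where serine feeds one-carbon metabolism, and Timm22 is the channel subunit of the translocase that inserts carrier proteins into that membrane. Pcbd1 is a dehydratase that helps to regenerate tetrahydrobiopterin, the cofactor of the aromatic amino acid hydroxylases and of nitric oxide synthase. Zfp688 is a zinc-finger gene, Gpatch11 encodes a protein with a G-patch, a glycine-rich motif found in partners of RNA helicases, and Cfap97 is named for cilia and flagella.

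Positions of the gene symbols were read from GENCODE vM21 (GRCm38), in which each is a protein-coding gene. Sfxn1 lies at chr13:54071869-54108342 on the plus strand and Timm22 at chr11:76406952-76416292 on the plus strand. Pcbd1 is the shortest in exon sequence, with 817 bases, at chr10:61089331-61094324 on the plus strand. Zfp688 is at chr7:127418967-127422068 on the minus strand and Gpatch11 at chr17:78835567-78848308 on the plus strand. Cfap97, at chr8:46151771-46195590 on the plus strand, overlaps Snx25 on the opposite strand. Smart-seq2 does not mark strand, so reads of Cfap97 and of Snx25 in that overlap cannot be told apart.

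To show what lies before the starts of genes chosen as a set, the sequence is given for 4 of them, from the RefSeq promoter table (GRCm38.p6), 5′ to 3′ on the gene's strand, in lower case with motif matches in capitals. Stretches that GENCODE annotates as exon of any gene were left out. The Sfxn1 stretch is chr13:54071595-54071844, that of Zfp688 is chr7:127422069-127422284, that of Pcbd1 is chr10:61089081-61089330 and that of Gpatch11 is chr17:78835365-78835515.
Sfxn1: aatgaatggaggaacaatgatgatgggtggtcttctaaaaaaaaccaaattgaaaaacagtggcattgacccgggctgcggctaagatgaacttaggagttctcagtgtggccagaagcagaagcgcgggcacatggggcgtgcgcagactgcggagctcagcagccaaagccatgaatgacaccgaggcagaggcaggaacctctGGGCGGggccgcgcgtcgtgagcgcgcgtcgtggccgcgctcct
Zfp688: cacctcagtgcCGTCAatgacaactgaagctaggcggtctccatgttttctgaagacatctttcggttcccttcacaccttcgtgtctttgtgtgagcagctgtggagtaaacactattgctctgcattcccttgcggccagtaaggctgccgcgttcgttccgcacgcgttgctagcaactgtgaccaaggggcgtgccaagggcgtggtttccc
Pcbd1: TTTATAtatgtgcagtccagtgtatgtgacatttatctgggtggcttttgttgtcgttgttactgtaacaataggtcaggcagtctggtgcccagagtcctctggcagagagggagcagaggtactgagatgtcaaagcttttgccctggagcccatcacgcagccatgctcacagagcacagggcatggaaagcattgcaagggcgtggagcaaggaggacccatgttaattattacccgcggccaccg
Gpatch11: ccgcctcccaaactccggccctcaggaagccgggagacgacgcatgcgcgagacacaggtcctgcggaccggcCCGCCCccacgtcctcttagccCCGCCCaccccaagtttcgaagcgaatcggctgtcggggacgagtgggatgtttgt
The capitals mark a GC box (GGGCGG) in Sfxn1 and in Gpatch11, the core TGACG of the cAMP response element in Zfp688, and TATAAA in Pcbd1, each searched on both strands, so that the capitals in Zfp688, Pcbd1 and Gpatch11 read as the reverse complement of the motif. Matches were counted in the 250 bases before the start, among 32851 promoters. GGGCGG was found in 32.7% of all promoters and in 2 of the 5 members with an entry, TGACG in 17.8% and in 2 members (Zfp688 and Timm22), and TATAAA in 12.4% and in 1 member. CCGGAAG, the ETS motif, was found in 6.91% of promoters and in Zfp688, within the part not printed. The full cAMP response element TGACGTCA (1.55% of promoters, overlapping TGACG), the AP-1 motif TGAGTCA (4.46%) and the EGR motif GCGNGGGCG (4.70%) were found in 0 of the 5 members. No motif was thus shared by all 5 promoters within these windows.

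Counts were summed over the cells of each animal, and 19 animals with at least 10 cells gave a sum (Homecage animal 1 had 1 cell). The sums held 17 to 521 cells and 17831821 to 463123041 counts, and single cells held 100002 to 6840943 counts. Median genes per cell and animal ran from 5914 to 8009 in Fear-Recall, 5009 to 7340 in Context-Only, 5462 to 7792 in Fear-Only and 4875 to 6888 in Homecage. Inhibitory neurons made up 25.1 to 31.0% of the cells of a Fear-Recall animal, 26.4 to 41.9% in Context-Only, up to 50.0% in Fear-Only and 29.4 to 51.0% in Homecage. Each of the 35 plates held a single condition, so plate and condition cannot be told apart. Markers of other cell types were low beside the summed level of 6 neuron markers (7365 to 10390 CPM). The 8 oligodendrocyte markers summed to 44.4 to 149.9 CPM in Fear-Recall and 127.7 to 223.9 CPM in Context-Only. The 8 astrocyte markers summed to 301.3 to 669.5 and 556.8 to 754.9 CPM, the 8 microglia markers to 24.5 to 62.5 and 10.7 to 47.2 CPM, and 5 endothelial markers to 5.77 to 14.4 and 10.6 to 17.2 CPM. Of these markers, 1 endothelial gene was at 0 in all Fear-Recall animals, and none of the other lists had a gene at 0 in all animals of either condition. Over the 19 animals, which share conditions and libraries, each member's level correlated negatively with the median genes per cell (Pearson r of -0.73 for Sfxn1, -0.60 for Cfap97, -0.485 for Zfp688, -0.43 for Timm22, -0.31 for Gpatch11 and -0.26 for Pcbd1). With the percentage of inhibitory neurons r ran from 0.099 (Timm22) to 0.349 (Sfxn1). These are descriptions, and the part of depth, of the share of inhibitory neurons and of the markers in the levels below was not tested. Subsets of cells are given further on as description.

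Levels are given as CPM, a gene's share of the counts of a sum on the usual CPM scale, after TMM scaling, which adjusts library sizes for differences in composition. Tables for all gates, a single gate and a class were scaled separately. In a sum over cells, fewer expressing cells and less RNA per cell cannot be told apart.

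Sfxn1, the serine carrier, had the highest CPM of the 6 genes in every animal. It reached 85.4, 117.7, 102.3, 89.3 and 111.0 CPM in Fear-Recall animals 1 to 5. Context-Only animals 2, 3, 4, 5 and 5b gave 200.6, 131.4, 144.6, 156.5 and 184.4 CPM. Every Fear-Recall animal was thus below every Context-Only animal. Homecage animals 2 to 5 gave 198.4, 185.1, 197.1 and 190.1 CPM, a narrow range above all Fear-Recall values. Fear-Only animals 1, 3, 4 and 5 gave 148.5, 113.4, 124.4 and 177.4 CPM, with animal 2 just above the last, and animal 3 overlapped the Fear-Recall range. Condition means were 101.1 ± 13.8 CPM (SD, n = 5) in Fear-Recall, 148.5 ± 29.9 (n = 5) in Fear-Only, 163.5 ± 28.5 (n = 5) in Context-Only and 192.7 ± 6.23 (n = 4) in Homecage.

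Timm22, the channel of the carrier translocase, separated the conditions less. Fear-Recall animals 1 to 5 gave 62.3, 68.1, 62.3, 53.1 and 81.8 CPM. Context-Only animals gave 153.9, 82.4, 100.7, 80.1 and 83.01 CPM, in the order 2, 3, 4, 5 and 5b. Fear-Recall animal 5 lay above the lowest Context-Only animal, so these groups overlapped at 1 animal each. Homecage animals (114.9, 117.4, 64.9 and 71.1 CPM) and Fear-Only animals (54.0, 88.5, 82.97, 78.6 and 87.02 CPM) overlapped Fear-Recall too. The Fear-Recall mean was 65.5 ± 10.6 CPM (SD, n = 5), and the Context-Only median was 83.01 CPM (n = 5). Context-Only animal 2 was the highest of all 19.

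Pcbd1, the pterin dehydratase, was spread widely over the animals of Context-Only and Homecage and narrowly over those of Fear-Recall. Its levels in Fear-Recall animals 1 to 5 were 17.6, 22.3, 17.3, 19.5 and 16.01 CPM. Context-Only animals ran from 18.4 CPM (animal 5) to 57.9 CPM (animal 2), with 34.3, 34.9 and 31.2 CPM in animals 3, 4 and 5b. Homecage animals 2 to 5 gave 51.0, 51.7, 29.5 and 15.3 CPM, and Fear-Only animals 20.9, 35.6, 23.2, 11.7 and 20.7 CPM. The sums mix gates in unequal shares: named pos cells were 63.15 to 77.6% of the cells in Fear-Recall animals 2 and 3 and all of those in animal 4, 67.1 to 79.1% in Context-Only animals 2 to 4, 74.8 and 75.85% in Fear-Only animals 2 and 3, 2.5% in Fear-Only animal 4 and 45.45% in Homecage animal 2. Fear-Recall overlapped each of the other conditions. Means were 18.5 ± 2.43 CPM (SD, n = 5) in Fear-Recall and 35.4 ± 14.3 (n = 5) in Context-Only.

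Zfp688, the zinc-finger gene, was at 18.8, 17.7, 15.4, 16.1 and 14.4 CPM in Fear-Recall animals 1 to 5. Context-Only animals 3, 4 and 5 lay close together at 24.8, 24.2 and 23.9 CPM, and animals 2 and 5b at 50.4 and 41.6 CPM. Homecage animals gave 49.8, 46.0, 46.6 and 27.5 CPM, so Fear-Recall did not overlap either of these conditions. Fear-Only animals (22.6, 33.7, 22.3, 16.95 and 18.99 CPM) overlapped Fear-Recall.

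Gpatch11, the G-patch gene, lay in the same range in Fear-Recall and in Fear-Only. Fear-Recall animals gave 26.3, 30.3, 27.9, 31.2 and 29.5 CPM and Fear-Only animals 27.1, 30.6, 29.2, 30.6 and 23.9 CPM. Their means were 29.0 ± 1.97 and 28.3 ± 2.84 CPM (SD, n = 5 each). Context-Only animals (54.7, 40.9, 40.8, 42.6 and 43.95 CPM) and Homecage animals (35.8, 54.3, 61.9 and 39.7 CPM) all lay above both groups. For this gene the low values were thus those of both groups with fear in their name. The share of all genes with this split was not computed, and the gene was chosen by its values in these samples.

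Cfap97 was at 18.8, 12.5, 15.98, 18.3 and 19.2 CPM in Fear-Recall animals. The nearest Context-Only animals were at 19.7 and 20.4 CPM (animals 4 and 3), and the others at 31.9, 32.6 and 37.2 CPM. Homecage animals ran from 22.1 to 29.5 CPM and Fear-Only animals from 18.03 to 23.6 CPM. The gap between Fear-Recall and Context-Only was small beside the spread within Context-Only.

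**Figure D1:**
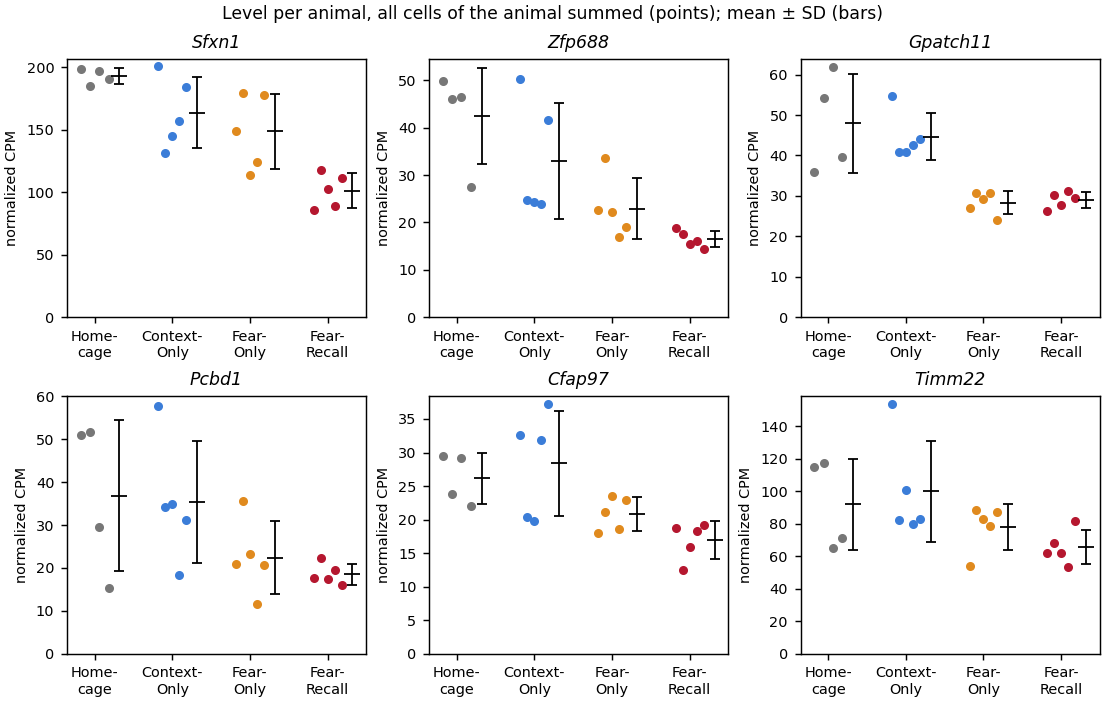
Normalized CPM (vertical axis, from 0) of each gene in each of the 19 animals (points), with the mean and SD of each condition (bars); conditions are on the horizontal axis. Fear-Recall animals lie below all Context-Only and Homecage animals for Sfxn1, Zfp688, Gpatch11 and Cfap97, and overlap them for Pcbd1 and Timm22.

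In these sums over all gates, 4 of the 6 members had every Fear-Recall animal below every Context-Only animal, as had 0.665% of the 19698 genes tested. The same 4 members lay below every Homecage animal, against 1.11% of genes. Below every Fear-Only animal were 0 of the 6, against 0.117%. These counts follow from how the genes were chosen and carry no support. By the quasi-likelihood test of edgeR, adjusted by Benjamini-Hochberg, 0 genes in the whole table passed an adjusted p of 0.05 (0.0%) between Fear-Recall and Context-Only, and 702 had an unadjusted p under 0.05. Between Fear-Recall and Homecage 0 genes passed (0.0%), with 1745 under the unadjusted threshold. DESeq2, another count model, called 7 genes in the first (7 higher and 0 lower in Fear-Recall) and 90 in the second (66 higher and 24 lower).

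Fitted differences, given as log2 of Fear-Recall over the other condition with a standard error (SE), put the members side by side. The comparisons below share the Fear-Recall sums. Zfp688 had -0.98 ± 0.26 against Context-Only, -1.36 ± 0.28 against Homecage and -0.48 ± 0.26 against Fear-Only. Sfxn1 had -0.67 ± 0.17, -0.92 ± 0.18 and -0.56 ± 0.17 in the same order. Pcbd1 had -0.91 ± 0.35, -0.99 ± 0.36 and -0.28 ± 0.34, and Cfap97 -0.72 ± 0.22, -0.62 ± 0.23 and -0.30 ± 0.22. For the channel gene Timm22 the differences were -0.59 ± 0.23, -0.49 ± 0.25 and -0.26 ± 0.23. Gpatch11 had -0.60 ± 0.18, -0.71 ± 0.19 and 0.03 ± 0.18, the last being the only value above 0 among these 18. Between Context-Only and Homecage, neither of which has fear in its name, members ranged from -0.38 ± 0.28 (Zfp688) to 0.11 ± 0.23 (Cfap97).

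**Figure D2:**
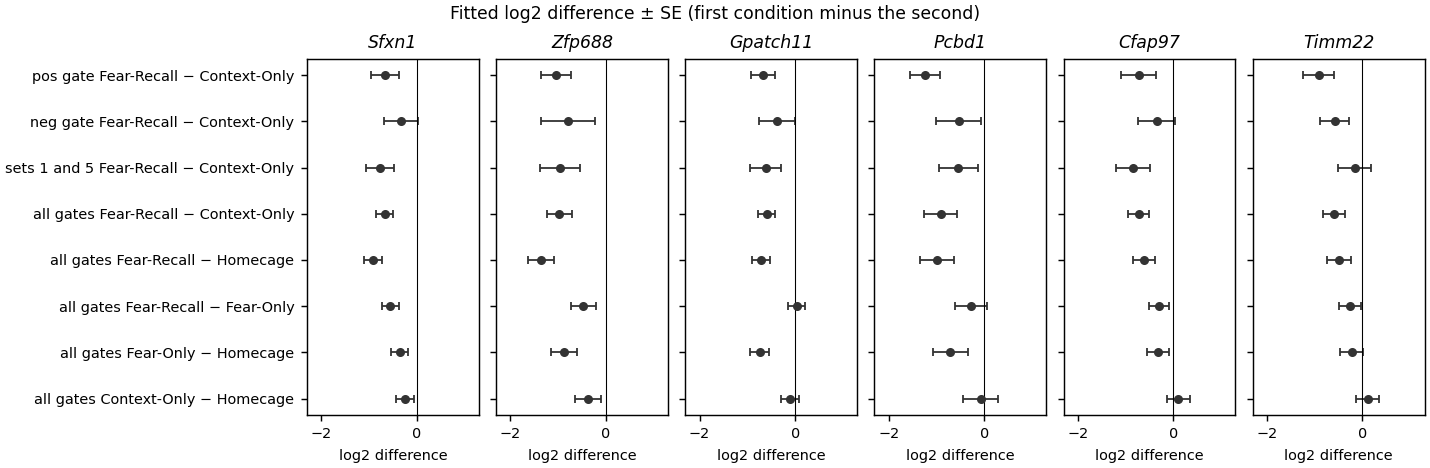
Fitted log2 difference (horizontal axis) of each gene, first-named condition minus the second, with bars of 1 SE, for 8 comparisons (vertical axis). All members lie left of 0 where Fear-Recall is set against Context-Only or Homecage, while Gpatch11 sits at 0.03 against Fear-Only.

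Differences were also read in subsets of cells chosen by genes detected. Among cells with 5000 to 9000 genes detected (2661 cells), the all-gate differences between Fear-Recall and Context-Only were -0.58 for Sfxn1, -0.82 for Zfp688, -0.50 for Gpatch11, -0.63 for Pcbd1, -0.74 for Cfap97 and -0.58 for Timm22. With the 2 clusters that had the lowest gene numbers left out (190 cells), they were -0.63, -0.97, -0.60, -0.77, -0.73 and -0.50 in that order. All 6 stayed below 0 in both subsets, with Pcbd1 the most reduced in size. The band covers most of the animal medians (4875 to 8009 genes), so gene numbers can still differ between conditions within it. The members were chosen for low values in these samples, so these signs carry no support.

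Cells of the pos gate came from 3 Fear-Recall animals, 3 Context-Only animals and 2 Fear-Only animals. Pcbd1 was at 25.55, 19.02 and 19.45 CPM in Fear-Recall animals 2, 3 and 4 and at 72.02, 36.4 and 41.8 CPM in Context-Only animals 2, 3 and 4. Zfp688 was at 15.6, 14.7 and 16.1 CPM against 46.6, 24.5 and 23.9 CPM. For Timm22 the values were 64.4, 58.5 and 53.0 CPM against 164.8, 77.8 and 89.4 CPM. In 5 of the 6 members every Fear-Recall pos sum was below every Context-Only pos sum, as in 3.24% of 20381 genes. Cfap97 overlapped. Context-Only animal 2 was the highest of the Context-Only animals for each member. Its pos cells had a median of 4490 genes, against 6856 to 8009 in the Fear-Recall animals. Inhibitory neurons made up 27.4 to 34.1% of pos cells in Fear-Recall and 31.2 to 42.5% in Context-Only, and the part of either in these levels was not tested. Fitted log2 differences ran from -0.67 ± 0.29 (Sfxn1) to -1.23 ± 0.32 (Pcbd1). Without Context-Only animal 2 they moved to -0.65 for Zfp688, -0.87 for Pcbd1, -0.28 for Cfap97, -0.51 for Timm22, -0.40 for Sfxn1 and -0.45 for Gpatch11. These fits have no block for the set. With all animals and the set as a block, Sfxn1 had -0.64 ± 0.17 and Pcbd1 -1.19 ± 0.21. Cfap97 had -0.68 ± 0.39 with the block and -0.73 ± 0.37 without it. By edgeR's quasi-likelihood test 0 genes (0.0%) passed an adjusted p of 0.05, with 688 at an unadjusted p under 0.05. DESeq2 called 24, of which 19 were higher and 5 lower in Fear-Recall. In counts simulated with the spread of this comparison (19814 genes), edgeR recovered 2% of genes changed by 2-fold and 72% of those changed by 4-fold.

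Cells of the neg gate (2 Fear-Recall and 3 Context-Only animals) gave smaller differences for each member, from -0.34 ± 0.35 (Sfxn1) to -0.80 ± 0.56 (Zfp688). The difference for Zfp688 there fell to -0.15 without Context-Only animal 2. In sets 1 and 5 Cfap97 had -0.85 ± 0.36, Sfxn1 -0.78 ± 0.29 and Zfp688 -0.96 ± 0.41, while Pcbd1 had -0.55 ± 0.41, Gpatch11 -0.62 ± 0.32 and Timm22 -0.16 ± 0.35. Without Context-Only animal 5b, Zfp688 moved to -0.53 and Pcbd1 to -0.13, and without Context-Only animal 5 Pcbd1 moved to -0.86. Timm22 turned to 0.11 with the set as a block and to 0.04 without Fear-Recall animal 1, and was -0.39 without Fear-Recall animal 5. Pcbd1 was at 0.01 in excitatory neurons alone. Whether pos and neg cells differed in this respect was not tested.

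Plates of the same animal set a scale for these values. Across 6 plates of Fear-Recall animal 1 (19 to 52 cells each), Sfxn1 ran from 72.8 to 107.3 CPM, Zfp688 from 10.5 to 24.3 CPM and Timm22 from 50.8 to 112.3 CPM. Pos cells of Fear-Recall animal 2 on its 2 plates gave 91.6 and 178.4 CPM for Sfxn1. For Sfxn1 these plates of an animal thus lay further apart than the all-gate means of Fear-Recall and Context-Only.

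The rule names lower levels after fear recall and not a gate, so gates were compared within animals, with a test. The contrast behind the choice is not stated, and this comparison uses some of the same pos sums, so its independence of the choice is not shown. It used 8 animals with at least 10 cells in each gate, with the animal as a block. Pcbd1 was higher in the pos gate in 8 of 8 animals, at 45.75 ± 22.2 CPM (SD, n = 8) against 18.1 ± 5.17 CPM in the neg gate. Homecage animal 2 rose from 20.8 to 83.3 CPM and Context-Only animal 4, the only animal with both gates on the same plate, from 19.3 to 43.02 CPM, whereas Fear-Recall animals 2 and 3 went from 13.98 to 26.8 and from 12.5 to 19.7 CPM. The log2 difference was 1.23 ± 0.17 (SE), with an adjusted p of 0.0196 by edgeR's quasi-likelihood test. It was the only member among the 46 genes higher in the pos gate, which were 0.259% of the 17752 genes tested.

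That call was not firm. Inhibitory neurons made up 37.6 ± 4.06% of pos cells and 19.1 ± 4.06% of neg cells (SD, n = 8), and the part of this difference in the Pcbd1 value was not tested as a cause. Within excitatory neurons alone the Pcbd1 log2 difference was 0.84 ± 0.24, with an adjusted p of 0.457, and within inhibitory neurons alone it was 0.69 ± 0.25, with an adjusted p of 0.441 by edgeR. Without the Fear-Recall animals it was 1.38 ± 0.20 with an adjusted p of 0.178, and without a term for the animal 1.33 ± 0.27 with an adjusted p of 0.0795 by edgeR. Leaving out Context-Only animal 3 or 4, Fear-Only animal 3, or Fear-Recall animal 2 or 3 gave adjusted p-values of 0.0608, 0.0516, 0.0706, 0.0709 and 0.0634 by edgeR, with differences between 1.20 and 1.32.

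Sfxn1 was 166.2 ± 56.7 CPM in pos and 127.2 ± 33.4 CPM in neg cells (SD, n = 8), and higher in the pos gate in 7 of 8 animals. Its log2 difference of 0.35 ± 0.13 did not pass, with an adjusted p of 0.387 by edgeR, and in excitatory neurons alone the direction turned (-0.012, adjusted p = 0.992). Gpatch11 was at 39.7 ± 10.95 in the pos and 32.45 ± 6.04 CPM in the neg gate (adjusted p = 0.510 by edgeR). For Zfp688, Cfap97 and Timm22 the differences were -0.05 ± 0.17, -0.04 ± 0.20 and -0.05 ± 0.14 with adjusted p-values of 0.935, 0.961 and 0.928 by edgeR, and each was higher in the pos gate in 4, 4 and 2 of 8 animals.

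**Figure D3:**
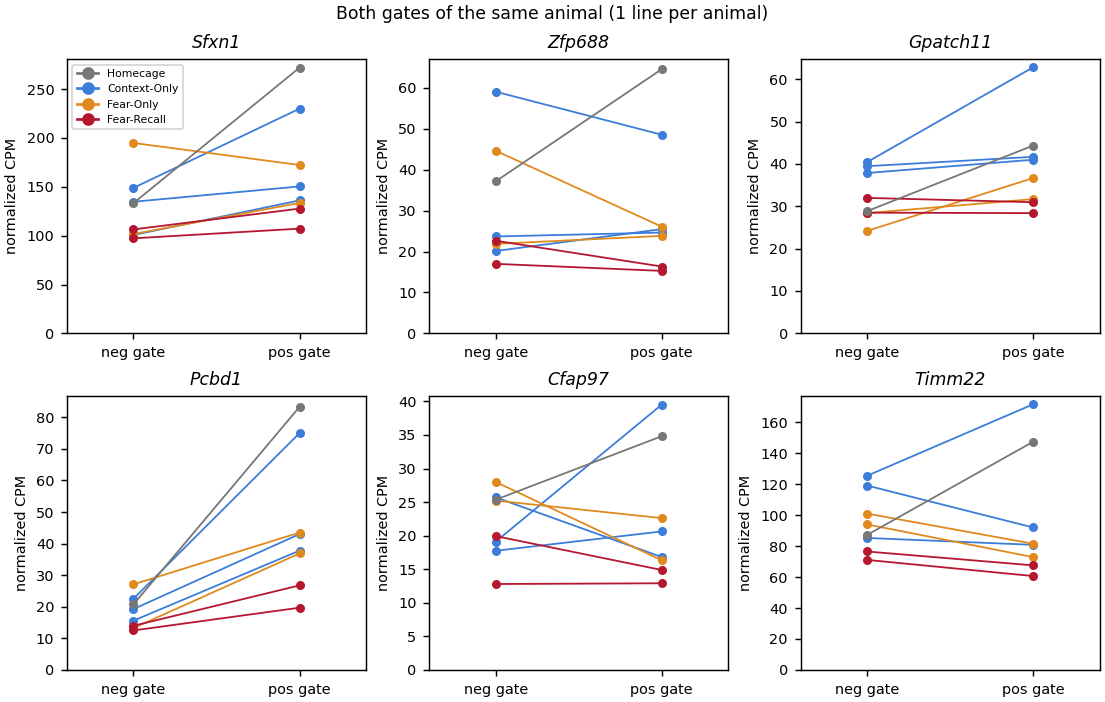
Normalized CPM (vertical axis, from 0) in the neg and pos gates of the same animal, 1 line for each of 8 animals, coloured by condition. Pcbd1 lines rise in all 8 animals, from 12.5 to 27.1 CPM in neg cells to 19.7 to 83.3 CPM in pos cells.

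Excitatory and inhibitory neurons of the same animal were compared in 17 animals, among them the animals whose values chose the genes. Neurons had been clustered without the 6 genes, and clusters were named from marker genes. Pcbd1 was the most class-dependent member, at 70.0 ± 33.7 CPM in inhibitory and 8.46 ± 4.32 CPM in excitatory neurons (SD, n = 17). Its log2 difference, excitatory minus inhibitory, was -3.20 ± 0.27 with an adjusted p of 8.33e-09 by edgeR's quasi-likelihood test, and it was higher in inhibitory neurons in 17 of 17 animals. Sfxn1 was also higher in inhibitory neurons in 17 of 17 animals, at 223.4 ± 56.8 against 109.1 ± 30.5 CPM, with a log2 difference of -1.08 ± 0.07 and an adjusted p of 3.27e-10 by edgeR. Among all 16101 genes tested, 18.4% were called higher in inhibitory and 22.7% higher in excitatory neurons. Excitatory neurons had a median of 7226 genes per cell and inhibitory neurons 5594, and the part of this difference in the levels was not tested.

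The other 4 members did not pass between the classes. Zfp688 was at 33.1 ± 22.3 CPM in inhibitory and 23.8 ± 10.1 CPM in excitatory neurons (SD, n = 17), a log2 difference of -0.35 ± 0.23 (adjusted p = 0.229 by edgeR). Timm22 differed by -0.11 ± 0.14 (adjusted p = 0.573 by edgeR) and Cfap97 by -0.21 ± 0.13 (adjusted p = 0.240 by edgeR). Gpatch11 was at 36.2 ± 15.1 and 35.1 ± 9.73 CPM, with a log2 difference of -0.01 ± 0.15 (adjusted p = 0.977 by edgeR).

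**Figure D4:**
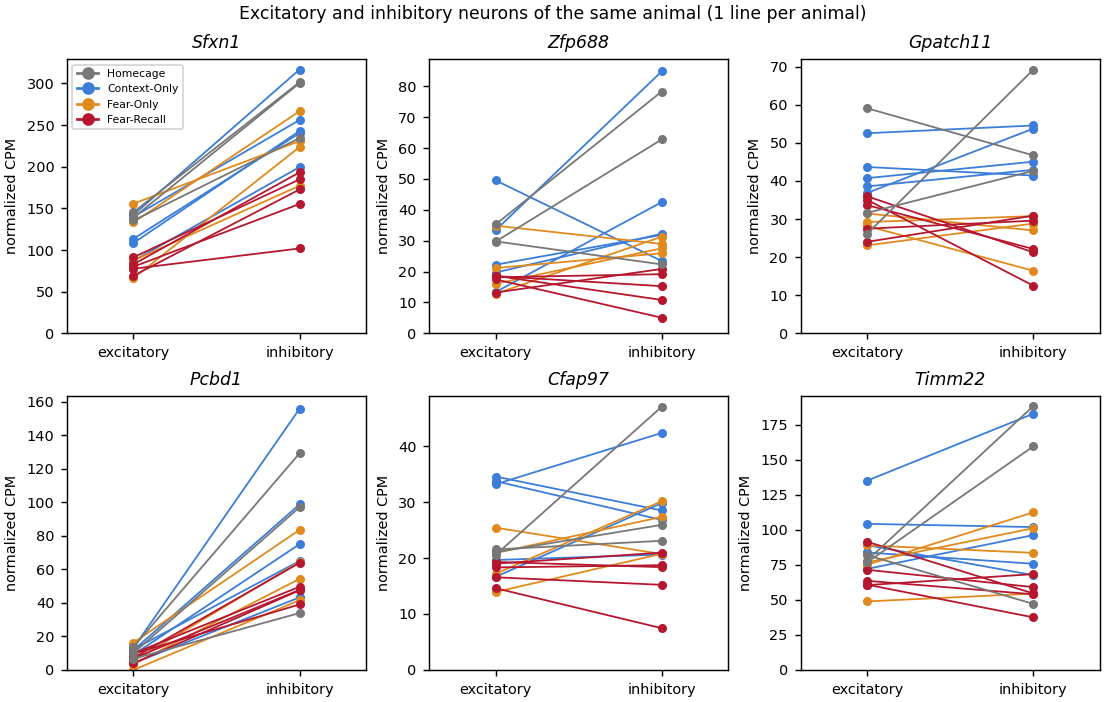
Normalized CPM (vertical axis, from 0) in excitatory and inhibitory neurons of the same animal, 1 line for each of 17 animals, coloured by condition. Every line rises towards inhibitory neurons for Sfxn1 and Pcbd1, and lines cross for the other 4 genes.

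The fitted differences lay below 0 in each class on its own. In inhibitory neurons alone, the log2 differences between Fear-Recall and Context-Only over all gates were -1.61 ± 0.44 for Zfp688, -1.04 ± 0.29 for Gpatch11, -0.95 ± 0.36 for Timm22, -0.90 ± 0.34 for Cfap97, -0.84 ± 0.37 for Pcbd1 and -0.65 ± 0.22 for Sfxn1. In excitatory neurons alone they were -0.71 ± 0.35, -0.46 ± 0.22, -0.50 ± 0.20, -0.67 ± 0.26, -0.44 ± 0.68 and -0.58 ± 0.21 in the same order. Inhibitory neurons of Fear-Recall animals ran from 4.91 to 20.3 CPM for Zfp688, below the lowest Context-Only animal at 23.96 CPM. For Gpatch11 they ran from 12.2 to 30.1 CPM, against 42.35 to 54.6 CPM in Context-Only. Excitatory neurons overlapped between these conditions for Zfp688 (13.2 to 18.8 against 13.2 to 51.15 CPM) but not for Gpatch11 (24.8 to 34.7 against 36.3 to 55.0 CPM). In inhibitory neurons the highest Fear-Recall animal was also just below the lowest Context-Only animal for Sfxn1 (197.6 and 197.8 CPM), Timm22 (66.48 and 66.59) and Cfap97 (20.34 and 20.45). Pcbd1 overlapped there, and these 4 genes overlapped in excitatory neurons. The gaps of Timm22 and Cfap97 in inhibitory neurons depended on the scaling. With both classes scaled together, inhibitory Timm22 was at 68.34 CPM in Fear-Recall animal 3 and 67.66 CPM in Context-Only animal 5. Inhibitory Cfap97 was then at 20.97 CPM in Fear-Recall animal 5 and 20.62 CPM in Context-Only animal 3, so both genes overlapped. The share of all genes that do not overlap was not computed by class. The members were chosen by their values in these samples, so these separations carry no support. Whether the classes differed in the size of the change was not tested.

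By neuron subclass, means over animals of all conditions, which are unequally represented among the subclasses, with at least 10 cells of the subclass put Pcbd1 highest in Sncg-like interneurons, at 94.7 ± 54.4 CPM (SD, n = 8), and in Vip-like interneurons, at 84.8 ± 50.8 (n = 16). Sst-like interneurons followed at 45.6 ± 18.4 (n = 8) and Ndnf/Lamp5-like interneurons at 23.97 ± 7.99 (n = 3). Among excitatory neurons, middle-layer-like cells held 14.8 ± 6.39 CPM (n = 15), and near-projecting-like cells the least, at 0.92 ± 1.77 CPM (n = 11). The order of Sncg-like and Vip-like cells lies within their spread. In Fear-Recall animals alone the order of the first 3 was not seen, with means of 60.5 CPM in Sncg-like (n = 2), 57.7 in Vip-like (n = 5) and 59.0 in Sst-like cells (n = 3). Pvalb-like cells (51 in all) gave no animal sum of 10 cells.

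Sfxn1 followed a like order among interneurons, with 243.6 ± 59.7 CPM in Sncg-like (SD, n = 8), 241.6 ± 79.0 in Vip-like (n = 16), 171.5 ± 75.6 in Sst-like (n = 8) and 92.7 ± 10.8 in Ndnf/Lamp5-like cells (n = 3). It differed from Pcbd1 in near-projecting-like excitatory neurons, where it reached 156.3 ± 86.96 CPM (n = 11), the highest mean of the excitatory subclasses. That mean includes 2 Homecage animals at 263.8 and 347.1 CPM, and 3 Fear-Recall animals had a mean of 96.5 CPM. Layer 5-like neurons held 52.6 ± 10.3 CPM (n = 3), all of them from Fear-Recall animals. The other 4 genes varied less, with subclass means of 59.1 to 103.4 CPM for Timm22, 24.3 to 47.99 for Gpatch11, 15.7 to 26.9 for Cfap97 and 11.2 to 38.45 for Zfp688, and neighbouring subclasses within their spread.

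Across the 8 subclasses with sums from both conditions, the Fear-Recall mean was below the Context-Only mean in 8 for Zfp688, Gpatch11 and Cfap97, in 7 for Sfxn1 and Timm22, and in 6 for Pcbd1. In Vip-like interneurons, with 5 animals in each condition, Sfxn1 was at 164.2 CPM (102.8 to 217.4) in Fear-Recall and 284.2 CPM (196.6 to 380.8) in Context-Only, and Pcbd1 at 57.7 CPM (35.5 to 81.5) and 93.8 CPM (34.7 to 175.1). In Sst-like interneurons Pcbd1 was at 59.0 CPM in 3 Fear-Recall animals (36.05 to 76.46), above the 1 Context-Only animal, the opposite order. These counts come from the samples whose values chose the genes, so they carry no support. The same animals recur across subclasses, and the share over all genes was not computed. Some means rest on few animals, as in Context-Only for Sst-like (n = 1) and Sncg-like cells (n = 2). Some gaps were small, as for Pcbd1 in unnamed excitatory neurons (6.63 against 6.64 CPM).

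The share of cells with at least 1 read did not fall along with the summed level. For Sfxn1 it was 86.98 ± 4.56% in Fear-Recall animals and 79.1 ± 11.1% in Context-Only animals (SD, n = 5 each). For Gpatch11 it was 59.2 ± 10.7% against 50.2 ± 16.6%, and for Timm22 71.3 ± 10.6% against 62.9 ± 15.3%. After thinning each cell to 100000 reads, these shares were 81.4 and 73.5%, 53.3 and 44.97%, and 68.1 and 59.2%. Zfp688 (38.4 and 33.2%), Cfap97 (45.3 and 40.4%) and Pcbd1 (31.3 and 30.2%) likewise had means that were no lower in Fear-Recall, and all 6 differences were smaller than the larger of the SDs. Thinned shares of Pcbd1 were 28.1 and 28.5%. Within Context-Only, Sfxn1 was read in 92.1 and 90.4% of the cells of animals 3 and 4. It was read in 70.4 and 70.5% of those of animals 2 and 5, which had fewer genes per cell. Thinning makes reads equal but not genes per cell, and the part of genes per cell in these shares was not tested.

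The mean level over animals in the cells that held a read was lower in Fear-Recall. Median CPM per animal among such cells, without TMM scaling, was 97.5 ± 11.9 for Sfxn1 in Fear-Recall and 127.7 ± 23.03 in Context-Only (SD, n = 5 each). For Zfp688 it was 35.4 ± 6.76 against 58.8 ± 22.2, for Gpatch11 39.3 ± 7.29 against 63.7 ± 16.95 and for Cfap97 25.3 ± 4.73 against 44.7 ± 16.9. Pcbd1 (43.5 ± 7.16 against 68.4 ± 19.4) and Timm22 (75.95 ± 9.99 against 99.3 ± 15.1) showed the same order. For Sfxn1, Context-Only animals 3 and 4 (medians of 7340 and 7197 genes per cell) had 104.1 and 103.6 CPM. These lay below Fear-Recall animal 5, at 118.5 CPM. Context-Only animals 2, 5 and 5b (5009, 5115 and 5198 genes) had 131.3, 148.6 and 150.8 CPM. The part of genes per cell in the difference between conditions was not tested.

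Compared per kilobase of exon, which allows levels to be set between genes, the order was Pcbd1 at 34.1 ± 16.5 CPM per kb (SD, n = 19), Timm22 at 26.25 ± 7.73, Sfxn1 at 15.2 ± 3.997, Zfp688 at 10.2 ± 4.60, Gpatch11 at 6.01 ± 1.76 and Cfap97 at 4.44 ± 1.24. Each neighbour in this order overlapped the next within 1 SD. These SDs are spreads over animals, and every animal holds all of the genes. Their overlap therefore does not show whether the order held within animals, which was not tested.

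Genes of the members' pathways were followed as lists. Between Fear-Recall and Context-Only over all gates, 0 of them passed (0.0% of all genes passed), so they are described by their median log2 difference beside that of all genes, -0.01. Other genes of protein import into mitochondria, the list of Timm22, had a median of -0.40, with 23 of 30 below 0. In the pos gate Timm17b, a subunit of the presequence translocase, was at 46.0 ± 5.94 CPM in Fear-Recall and 71.95 ± 22.4 in Context-Only (SD, n = 3 each, log2 difference -0.65 ± 0.30). Hspa9, the mitochondrial Hsp70 that pulls in precursors, had 0.59 ± 0.28. Of the tetrahydrobiopterin genes 8 of 13 were below 0 (median -0.32), and Qdpr, the reductase that acts after Pcbd1, was at 134.8 ± 18.1 against 186.8 ± 1.48 CPM in the pos gate (n = 3 each, -0.48 ± 0.23). Th, the tyrosine hydroxylase, was at 11.7 ± 14.6 CPM in pos Fear-Recall cells and 0.0126 ± 0.0219 CPM in Context-Only.

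Sideroflexins and one-carbon enzymes other than Sfxn1 lay around a median of 0.22, and 11 of 25 were below 0. In the pos gate Aldh1l1, a folate dehydrogenase, had 1.299 ± 0.425 and Mtr, the methionine synthase, 2.90 ± 0.96, the latter from levels under 1 CPM. G-patch proteins and DEAH helicases were centred at 0.08, 12 of 27 being below 0 (Gpank1 -0.58 ± 0.30 and Gpkow 0.82 ± 0.42 in the pos gate). For zinc-finger genes and KRAB cofactors the median was -0.10, 8 of 14 being below 0 (Zfp747 1.23 ± 0.58 and Atf7ip 0.43 ± 0.24). In the Cfap genes 11 of 21 were below 0, the median being -0.14 (Cfap44 2.07 ± 1.14 and Cfap57 -1.45 ± 0.95, both under 1 CPM). None of these named genes passed, with an adjusted p of 0.97 by edgeR for each.

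Between neuron classes more of the list genes passed, as did many genes of the whole table (18.4% higher in inhibitory and 22.7% higher in excitatory neurons), against which the counts are to be read. Of 24 one-carbon genes tested, 8 were higher in inhibitory and 3 (Aldh1l1, Mtr and Sfxn5) in excitatory neurons. The 3 enzymes of serine synthesis, named here after their values were seen, were among the former. Phgdh had a log2 difference, excitatory minus inhibitory, of -5.11 ± 0.68 (adjusted p = 3.34e-06), Psat1 -2.36 ± 0.25 (adjusted p = 1.92e-07) and Psph -1.80 ± 0.26 (adjusted p = 9.45e-06) by edgeR. The mitochondrial one-carbon enzymes Mthfd2 (-1.99 ± 0.32) and Shmt2 (-0.79 ± 0.21) were also higher in inhibitory neurons.

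Of 9 tetrahydrobiopterin genes tested, 5 were higher in inhibitory and 0 in excitatory neurons. They were Qdpr (-0.74 ± 0.06), Nos1, a nitric oxide synthase (-1.995 ± 0.439), Gch1, which begins tetrahydrobiopterin synthesis (-2.26 ± 0.54), Pcbd2, the paralog of Pcbd1 (-0.46 ± 0.17), and Tph2, a tryptophan hydroxylase (-3.58 ± 1.07), of which Gch1 had a mean of 1.34 CPM in inhibitory neurons. Protein import had 10 genes higher in inhibitory neurons, Hspa9 among them (-0.73 ± 0.08), and 3 in excitatory neurons (Timm8b, Tomm7 and Tomm70a) of 30. For G-patch and zinc-finger genes the share higher in inhibitory neurons was near that of all genes (18.4%). G-patch genes split into 6 and 2 (Cmtr1 and Dhx38) of 27, and zinc-finger genes and cofactors into 3 (Cbx1, Cbx5 and Trim28) and 0 of 14. Among Cfap genes 1 (Cfap36) was higher in inhibitory and 11 in excitatory neurons of 15, most of them at a few CPM.

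The genes whose level over the 19 animals was most like the mean standardised level of the members were Clpp, a mitochondrial protease (Pearson r = 0.902), Gsto1, a glutathione transferase (r = 0.895), and Caly, a neuronal membrane protein (r = 0.884), among 7316 genes compared. These sums share libraries, depth and conditions, and the genes were picked for the likeness. Clpp was at 135.5 ± 28.3 CPM in Fear-Recall (SD, n = 5), 248.7 ± 114.3 in Context-Only (n = 5) and 230.5 ± 73.9 in Homecage (n = 4). Unlike Sfxn1, its Fear-Recall range (110.3 to 179.7 CPM) overlapped that of Context-Only (164.0 to 436.8 CPM).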

How the data were processed

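Single cells were prepared by Smart-seq2, per the labels' protocols, and the authors deposited raw read counts per gene and cell. Bowtie 0.12.2 and the builds mm8 and mm10 appear in the submitters' processing notes without roles, and no source used here names the counting tool. The reporter row was left out of sums and tests. Cells were clustered with scanpy 1.11.5 without the 6 members (2000 variable genes, 30 components, 15 neighbours, Leiden 1.0, 20 clusters) and named from marker genes, so names may differ from the study's. No doublet caller was run. Raw counts were summed per animal, by gate or class where compared, over at least 10 cells. Sums were tested with edgeR 4.0.16 (TMM, quasi-likelihood, minimum count 10, minimum total 15, Benjamini-Hochberg at 0.05, R 4.3.3), which was tested on simulated data, with 200 genes changed in each comparison. Gate and class comparisons had the animal as a block. Alternatives were DESeq2 1.42.0, RLE scaling, no filter, left-out animals, a set block, single classes and, chosen after seeing the data, subsets by genes per cell. The comparisons of all-gate Fear-Recall sums with Context-Only and Homecage were also added then.

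The members, pathway lists and marker lists were chosen with earlier results of these data known. Besides the members, the 2 genes of smallest p in the pos comparison of Fear-Recall with Context-Only were named from each pathway list, and 3 genes of like pattern whose log2 CPM averaged 4 or more. Other names were chosen after their values were seen.

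Same-numbered animals of different conditions deviated together from their condition means in all-gate sums (correlation 0.231 to 0.725, 28 of 28 pairs over 0.1) and pos sums (0.118 to 0.775, 7 of 7), so the set number paired them there. In neg sums 9 of 12 and in sets 1 and 5 4 of 6 pairs passed 0.1. Where a condition had 2 animals, their deviations mirror each other, so such pairs are not separate evidence. Context-Only animals 5 and 5b are both of set 5 and mirror each other. In sets 1 and 5 no more than these 4 pairs could therefore pass, and the count does not measure the pairing there. The labels do not say what the number marks.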

Additional observations from a re-analysis of the deposited data

Results flagged for a closer look

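Dixon's test was applied to each member's CPM by condition in groups of 4 or 5 animals, and to the ratio of pos to neg gate in 8 animals, 30 groups in all. An animal stood apart from its group in 4 of them, and chance alone gives about 1 in 20. Zfp688 in Homecage was lowest in animal 5, at 27.5 CPM against 46.0 CPM in the next. Gpatch11 in Context-Only was highest in animal 2, at 54.7 CPM against 43.95 CPM in the next. Timm22 in Context-Only was highest in the same animal, at 153.9 CPM against 100.7 CPM. Timm22 in Fear-Only was lowest in animal 1, at 54.0 CPM against 78.6 CPM, from 36 cells. Context-Only animal 2 had the fewest genes per cell of its condition, with a median of 5009.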

How the results depend on the processing

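With edgeR, 0 genes passed in any comparison of conditions for which alternatives were run, under every alternative with that tool. With the replicate (set) block these 7 comparisons each had 0 calls, as without it, but other values moved. By edgeR, genes at an unadjusted p under 0.05 went from 688 to 1938 in pos cells of Fear-Recall against Context-Only. Over all gates they went from 702 to 1405, and in neg cells from 348 to 306. Against Homecage they went from 1745 to 2748, and edgeR's smallest adjusted p from 0.558 to 0.0707. Condition differences given above are from fits without this block unless it is named. The animal block did change the gate and class counts below. DESeq2 called 24 genes in pos cells between Fear-Recall and Context-Only, 7 between Fear-Recall and Fear-Only, 12 in neg cells, 126 in sets 1 and 5, and over all gates 100 between Fear-Only and Homecage, 90 between Fear-Recall and Homecage and 7 between Fear-Recall and Context-Only. Among its 90 calls of 19698 genes tested were Sfxn1, Zfp688 and Gpatch11, and Gpatch11 was among its 100 of 19698. Members were chosen by their values in these samples, so these calls carry no support. The gate comparison, with 51 calls, gave 647 with DESeq2, 19 with no replicate block, 20 without the 2 clusters of fewest genes, 1 without Fear-Recall animals, 2 in excitatory neurons, 0 in inhibitory neurons (1413 at an unadjusted p under 0.05) and 1 to 32 with an animal left out, the fewest being 1 when Fear-Recall animal 2, 5 when Fear-Recall animal 3 and 6 when Fear-Only animal 3 was left out. The class comparison gave 4778 to 7891 calls, against 6620.

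Gate differences that did not pass changed sign. Sfxn1 had -0.012 in excitatory neurons. Zfp688 had 0.115 without the 2 clusters, 0.037 without Fear-Recall animals and -0.178 to 0.048 with an animal left out. Cfap97 had 0.033 with no replicate block, 0.021 without Fear-Recall animals, 0.323 in inhibitory neurons and -0.185 to 0.066 with an animal left out. Timm22 had 0.021 with no replicate block and 0.005 without Fear-Recall animals. The class difference of Gpatch11 was 0.011 without the 2 clusters, 0.009 with no filter and -0.092 to 0.080 with an animal left out. The cause of these changes was not tested. Sums of few cells limit the precision, as do plates that each hold 1 condition.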
